A study of Mus musculus with 4 samples.

Results

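The marrow adipo-lineage genes examined here are 10 genes known from adipocytes and their precursors, chosen by name: Adipoq, Lpl, Apoe, Hp, Pparg, Cebpa, Cebpb, Ebf1, Ebf3 and Foxc1. They are 10 of the 31053 genes in the count matrix, and each was found under 1 gene identifier. Their levels were described across Cxcl12-rich stromal cells, osteoblasts, pericytes and the other cells of the tibia. The sample was 1 male mouse at postnatal day 6 with the genotype Col10a1Cre;Rosa26-Tdtomato;Irx3 +/Δ;Irx5 +/-, labelled as the Irx3/5 heterozygous control, and cells of its 2 tibiae were pooled into 1 library of single-cell RNA. All cells compared here came from this 1 mouse, and no other genotype was analysed here. The Cre, driven from Col10a1, switches on the tdTomato reporter in hypertrophic chondrocytes (HCs), and the reporter's transcripts remain in the cells that descend from them. The paper writes the Irx3 allele as +/ΔHC, the notation it also uses for Mmp14 inactivated by this Cre. The Irx3 state may therefore differ between HC-derived and other cells, whereas Irx5 +/- was shared by all. Since there was 1 library from 1 animal, no replicate error can be given, and each interval below is a 95% interval that covers counting error only.

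Some mesenchymal cells of the bone marrow make the chemokine Cxcl12 and the stem cell factor Kitl, which keep blood stem cells in place, and also transcribe genes of the fat-cell program without storing fat. The fat-cell program is run by Pparg and Cebpa, which are switched on after the early factor Cebpb, and its products include the hormone adiponectin (Adipoq) and lipoprotein lipase (Lpl). Ebf1, Ebf3 and Foxc1 are transcription factors that maintain the marrow's Cxcl12-producing stroma, of which Ebf1 and Ebf3 are known for keeping it from turning into bone and Foxc1 for keeping it from turning into fat.

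The members lie on 7 chromosomes of GRCm38. Adipoq spans chr16:23146536-23158028 on the plus strand and Ebf3 spans chr7:137193673-137314445 on the minus strand, while the short gene Cebpa spans chr7:35119293-35121928 on the plus strand. Cebpb overlaps the protein-coding gene Tmem189 on the opposite strand, which has 5743 UMIs of its own, and Ebf1, Ebf3, Pparg and Cebpa each overlap antisense genes with at most 20 UMIs in the matrix. The 250 bases before the start of Adipoq, Cebpa and Ebf3 are shown as 1 example each of a secreted product, a fat-cell factor and a stromal factor, out of the 7 members with their highest level in the Cxcl12-rich stroma. The sequences are from RefSeq on GRCm38.p6, read 5′ to 3′ on the gene's strand, at chr16:23146286-23146535, chr7:35119043-35119292 and chr7:137314446-137314695. Capitals mark matches to the CCAAT box (CCAAT), the TATA box (TATAAA) and the core of the EBF motif (CCCNNGGG) on either strand.
Adipoq: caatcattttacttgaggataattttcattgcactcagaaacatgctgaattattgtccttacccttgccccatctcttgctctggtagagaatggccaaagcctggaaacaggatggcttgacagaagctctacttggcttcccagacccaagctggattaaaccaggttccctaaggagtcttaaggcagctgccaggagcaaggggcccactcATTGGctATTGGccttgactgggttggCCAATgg
Cebpa: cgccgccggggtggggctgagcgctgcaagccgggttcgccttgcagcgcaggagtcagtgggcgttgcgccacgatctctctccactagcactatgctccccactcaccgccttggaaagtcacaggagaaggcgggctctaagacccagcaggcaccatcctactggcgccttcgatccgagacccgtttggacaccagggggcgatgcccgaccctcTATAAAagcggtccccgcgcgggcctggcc
Ebf3: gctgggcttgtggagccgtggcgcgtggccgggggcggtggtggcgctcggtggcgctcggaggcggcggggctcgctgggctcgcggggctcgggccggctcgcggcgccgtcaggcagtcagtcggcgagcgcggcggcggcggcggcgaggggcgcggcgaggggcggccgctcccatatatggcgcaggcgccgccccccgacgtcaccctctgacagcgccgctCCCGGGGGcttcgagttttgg

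The Adipoq window held 3 CCAAT matches, the nearest of which began 7 bases before the start, and this motif was in 33.8% of 32851 RefSeq promoter windows of the same length. The Cebpa window held 1 TATA match that began 30 bases before the start, which 12.4% of windows hold. In the Ebf3 window 1 EBF core match began 21 bases before the start, and 11.8% of windows hold one. RefSeq windows were found for 8 of the 10 members, without Lpl and Hp. Among their 13 windows the EBF core was in those of Apoe, Cebpb and Ebf3, and the motif of the C/EBP family (TTGCNNAA, in 9.56% of windows) was in 1 window of Pparg. The forkhead motif (TAAACA, in 12% of windows) was also in 1 window of Pparg. No 2 different motifs overlapped in the 3 windows printed, and these matches are letters in a window and no measure of binding.

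After filters on genes and mitochondrial reads, 8255 of 14181 barcodes were kept, with a median of 13957 unique molecular identifiers (UMIs, the count of captured transcripts) per cell. Clustering without the members gave 30 clusters, of which 27 were named from marker lists as 15 classes; each name stands for cells like that type. The Cxcl12-rich stromal class was 1 cluster of 300 cells with 3587464 UMIs and a median of 10474 per cell, the immature osteoblasts were 493 cells, the mature osteoblasts 398 and the pericytes or smooth muscle cells 101. The pericyte cluster held all 8 markers of its list at 10 or more UMIs per 1000000, led by Rgs5, Acta2 and Tagln. Its 10 leading genes also held the contractile genes Myh11, Myl9 and Tpm2 of smooth muscle, so pericytes and smooth muscle cells were not told apart, and "pericytes" below stands for this mixed cluster. Likewise, "monocytes" below stands for the class named macrophage or monocyte. In the Cxcl12-rich class all 7 markers of its own list reached that level, and Cxcl12 was at 6570.1 UMIs per 1000000 UMIs of the class (CPM) against 536 CPM in immature osteoblasts and 9.39 CPM in mature osteoblasts. However, 6 of the 7 also reached 10 CPM in immature osteoblasts and in fibroblasts. Steap4 was higher in pericytes (339 against 141 CPM) and Grem1 in fibroblasts (113 against 97.6 CPM), while the other markers were highest in the Cxcl12-rich class. All 8 immature osteoblast markers reached 10 CPM in the Cxcl12-rich class as well, so the class was not free of osteoblast transcripts. Its 10 leading genes were led by Cxcl12, Adipoq and Lpl, and 14 of its cells were marked as doublets. With a coarser clustering or at most 5% mitochondrial UMIs no such class formed, and under the other settings it held 199 to 358 cells. Blood transcripts were also present: Hbb-bs, a globin of red cells, was at 22596 CPM in the Cxcl12-rich class and 1602 CPM in immature osteoblasts, and the neutrophil granule gene Ngp was at 208 CPM and 17.6 CPM. The part of osteoblast and blood transcripts in the comparisons was not tested except where a value is given below.

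Adipoq, which encodes the hormone adiponectin, was found mainly in the Cxcl12-rich class. It had 745 UMIs there, or 208 CPM (193 to 223), which were 92.2% of its 808 UMIs in all kept cells. Immature osteoblasts had 27 UMIs at 4.10 CPM (2.70 to 5.96), pericytes 2 UMIs at 1.86 CPM (0.225 to 6.70), and mature osteoblasts none of 8198709 UMIs, which allows up to 0.366 CPM. No UMI of Adipoq was found among osteoclasts or macrophages, monocytes, neutrophils or T or NK cells. The 30 T or NK cells had only 244014 UMIs, which allows up to 12.3 CPM. The erythroid cells, taken as the background of free RNA, had 2 UMIs at 0.316 CPM (0.0382 to 1.14). The level in the Cxcl12-rich class lay above the interval of every other class, while the intervals of immature osteoblasts and pericytes overlapped.

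Lpl, the enzyme that frees fatty acids from lipoproteins, was highest in the Cxcl12-rich class at 1548 CPM (1508 to 1590). Pericytes followed at 769 CPM (718 to 823) and the osteoclast or macrophage cluster at 335 CPM (322 to 348), each clear of the next. Fibroblasts at 88.2 CPM, immature osteoblasts at 83.0 CPM and chondrocytes at 81.7 CPM had overlapping intervals. Mature osteoblasts had 8.66 CPM (6.76 to 10.9) and erythroid cells 3.31 CPM. The Cxcl12-rich class held 37.1% of all Lpl UMIs, so that Lpl, unlike Adipoq, had most of its UMIs outside this class.

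Apoe, a carrier protein of lipids that macrophages also secrete, was highest in the osteoclast or macrophage cluster at 5218 CPM (5168 to 5269). That cluster had as many osteoclast as macrophage markers among its 10 leading genes and is named for both. Monocytes had 1219 CPM and plasmacytoid dendritic cells 562 CPM (533 to 593), and the Cxcl12-rich class came after these with 459 CPM (437 to 482). However, 24 of the 190 plasmacytoid dendritic cells were marked as doublets. Their class also had 2327 CPM of the bone collagen Col1a1, and all 9 macrophage or monocyte markers reached 10 CPM in it. A UMI of Apoe was found in 28.9% of its cells and in 61.0% of Cxcl12-rich cells. The part of RNA from other cells in the Apoe level of plasmacytoid dendritic cells was not tested. Among mesenchymal classes the Cxcl12-rich class was highest. Fibroblasts had 79.7 CPM, immature osteoblasts 54.0 CPM, mature osteoblasts 44.4 CPM and pericytes 38.0 CPM. Within the 7 chondrocyte clusters Apoe ranged from 9.4 to 425 CPM, the latter in 1 cluster of 125 cells. Set against a macrophage transcript, there were 183 Apoe UMIs per UMI of the macrophage gene C1qa in the Cxcl12-rich class and 3.84 in the osteoclast or macrophage cluster. The ratio was not computed for monocytes, and the part of macrophage or monocyte RNA in the Apoe level was not tested.

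Hp, which encodes the haemoglobin-binding protein haptoglobin, was shared by the Cxcl12-rich stroma and myeloid cells. The Cxcl12-rich class had 749 CPM (721 to 778) and neutrophils had 734 CPM (720 to 749), which overlapped, and monocytes followed at 533 CPM. The neutrophil class joined a cluster of 541 cells led by Ngp, Chil3 and Ltf with one of 393 cells led by Elane, Prtn3 and Ctsg. Its values are taken over both. Immature osteoblasts had 133 CPM (125 to 143), pericytes 59.4 CPM and mature osteoblasts 14.6 CPM. The Cxcl12-rich class had 3.59 Hp UMIs per UMI of Ngp, against 0.0444 in neutrophils and 0.0749 in erythroid cells. Monocytes were closer, with 3345 UMIs of Hp and 2343 of Ngp, against 2688 and 748 in the Cxcl12-rich class. The part of monocyte RNA in the Hp level was not tested. When the 61 Cxcl12-rich cells with a UMI of Ngp were left out, Hp was at 776 CPM (744 to 809) in the remaining 239 cells.

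Pparg, the nuclear receptor that directs fat-cell formation, was found at low counts throughout. It had 135 UMIs in the Cxcl12-rich class at 37.6 CPM (31.6 to 44.5) and 24 UMIs in pericytes at 22.3 CPM (14.3 to 33.1), and these intervals overlapped. Blood vessel cells had 19.3 CPM (16.7 to 22.3) and monocytes 13.1 CPM. Immature osteoblasts had 4.70 CPM and mature osteoblasts 0.488 CPM from 4 UMIs, near the 0.158 CPM of erythroid cells.

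Cebpa, its partner in the fat-cell program and a factor of myeloid cells, was at 74.7 CPM (66.0 to 84.2) in the Cxcl12-rich class. The osteoclast or macrophage cluster had 44.3 CPM (39.7 to 49.2) and pericytes 33.4 CPM (23.4 to 46.2), whose intervals overlapped. Immature osteoblasts had 15.9 CPM, mature osteoblasts 5.73 CPM and chondrocytes 1.20 CPM.

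Cebpb, an early inducer of the same program that also acts in inflammation, was widespread. Monocytes had 2623 CPM (2583 to 2663), and pericytes came next with 734 CPM (684 to 787). The Cxcl12-rich class had 543 CPM (519 to 568), whose interval overlapped those of plasmacytoid dendritic cells and neutrophils, above immature osteoblasts at 401 CPM and mature osteoblasts at 305 CPM. B cells at 19 CPM had less than erythroid cells at 46.4 CPM, and no class other than B cells was below the erythroid level.

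Ebf1, a factor that commits B cells and also acts in the marrow stroma, was highest in B cells at 1669.9 CPM (1641 to 1699). Pericytes had 983 CPM (925 to 1044), the Cxcl12-rich class 607 CPM (582 to 633) and immature osteoblasts 416 CPM (401 to 432), each clear of the next. Mature osteoblasts had 65.9 CPM and fibroblasts 312 CPM, with 419 CPM in 1 fibroblast cluster and 138 CPM in the other. The Cxcl12-rich class had 12 UMIs of the B cell receptor gene Cd79a, which gives 182 Ebf1 UMIs per UMI of Cd79a against 1.37 in B cells.

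Ebf3, the relative of Ebf1 without a known part in B cells, had 0.781 CPM in B cells and was highest in the Cxcl12-rich class at 180.3 CPM (167 to 195). Blood vessel cells had 44.4 CPM (40.4 to 48.7), pericytes 35.3 CPM (25.0 to 48.4) and immature osteoblasts 34.1 CPM (29.8 to 38.9), whose intervals overlapped in turn. Mature osteoblasts had 8 UMIs at 0.976 CPM. Thus the level fell from the Cxcl12-rich to the immature to the mature osteoblast class, each step larger than the counting error.

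Foxc1, a forkhead factor of skeletal and vascular development, was highest in the Cxcl12-rich class at 173 CPM (160 to 188). Pericytes had 107 CPM (88.1 to 128) and chondrocytes 106 CPM (103 to 109). Immature osteoblasts had 89.99 CPM and mature osteoblasts 36.3 CPM. Across the 7 chondrocyte clusters the level ran from 48.5 to 120.1 CPM, the lowest being the Col10a1-rich hypertrophic cluster of 86 cells. Blood lineage classes had between 1.89 and 19 CPM.

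**Figure D1:**
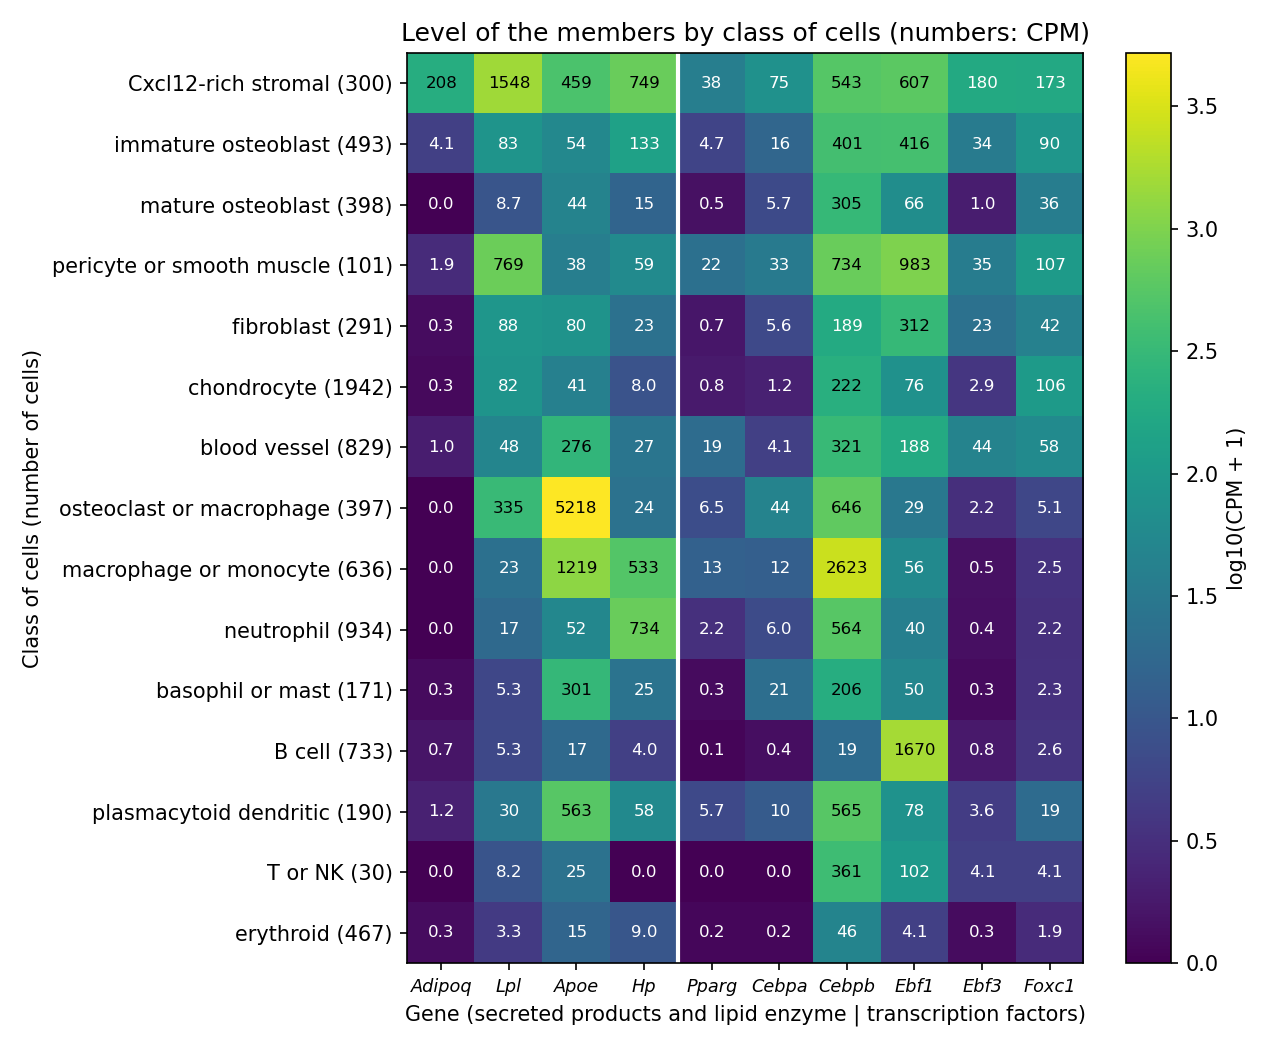
Heat map of the level of each of the 10 genes (columns) in each of 15 named classes of cells (rows, with the number of cells); colour shows log10(CPM + 1) and the number in each field is the CPM. Adipoq is at 208 CPM in Cxcl12-rich stromal cells and at most 4.10 CPM elsewhere, while Cebpb, Ebf1 and Apoe have their brightest fields in monocytes, B cells and the osteoclast or macrophage cluster.

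In all, 7 of the 10 members had their highest level in the Cxcl12-rich class: Adipoq, Lpl, Hp, Pparg, Cebpa, Ebf3 and Foxc1. Of 11946 genes with at least 10 CPM in a named class, 5.06% were highest there. For Hp and Pparg the interval overlapped that of the next class. Adipoq reached 10 CPM in the Cxcl12-rich class only, and the members were chosen with earlier results of these data known. The count therefore describes the members and is no support for a difference.

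Against osteoblasts, with both osteoblast classes summed, each of the 10 members was higher in the Cxcl12-rich class. The log2 ratio, taken with 1 CPM added to each level, was 6.21 for Adipoq (5.84 to 6.57), 5.18 for Lpl (5.06 to 5.30), 3.45 for Hp (3.35 to 3.56) and 3.21 for Apoe (3.09 to 3.34). Of the factors it was 3.52 for Pparg (3.11 to 3.93), 3.44 for Ebf3 (3.23 to 3.64) and 2.75 for Cebpa (2.48 to 3.02). These 7 were at least 4-fold higher, whereas Foxc1 at 1.51, Ebf1 at 1.45 and Cebpb at 0.64 stayed under 4-fold. Of all 8614 genes with at least 10 CPM in either class, 2.93% were at least 4-fold higher and 1.56% at least 4-fold lower, with a median log2 ratio of 0.30 against 3.32 for the members. All 10 members met that level filter, Adipoq and Pparg only through the Cxcl12-rich class, so the count describes the members and is no support for a difference.

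Against the pericyte or smooth muscle cluster the members divided. Adipoq at 6.19 (4.89 to 7.49, on 2 pericyte UMIs), Hp at 3.64 (3.28 to 3.99), Apoe at 3.56 (3.12 to 4.0) and Ebf3 at 2.32 (1.86 to 2.78) were at least 4-fold higher in the Cxcl12-rich class on the log2 scale. Lpl at 1.01 (0.90 to 1.11), Cebpa at 1.14, Pparg at 0.73 and Foxc1 at 0.70 were higher by less. Ebf1 was lower, with a log2 ratio of -0.69 (-0.80 to -0.59), and so was Cebpb at -0.43 (-0.55 to -0.31). Of 9071 genes compared, 2.72% were at least 4-fold higher and 3.63% at least 4-fold lower, and the median was -0.03 against 1.07 for the members. Adipoq met the level filter only through the Cxcl12-rich class, so this count too is no support for a difference. The pericytes were 101 cells with 4517 CPM of the cartilage collagen Col2a1 against 558 CPM in the Cxcl12-rich class, and the part of such foreign RNA in these ratios was not tested.

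Against all other cells together, 6 members were at least 4-fold higher: Adipoq at a log2 ratio of 7.15, Lpl and Ebf3 at 4.44 each, Cebpa at 3.26, Pparg at 3.07 and Hp at 2.60. Foxc1 stood at 1.67, Ebf1 at 1.65 and Cebpb at 0.42, and Apoe at 0.07 (0.00 to 0.14) was nearly level with the other cells, among which are the macrophages. Over the alternative settings the Apoe ratio ran from -0.12 to 0.60. In this comparison 4.97% of 9233 genes were at least 4-fold higher and 5.76% at least 4-fold lower. Adipoq, Pparg, Cebpa and Ebf3 were below 10 CPM in the other cells and passed the filter only through the Cxcl12-rich class, so the count is a description.

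**Figure D2:**
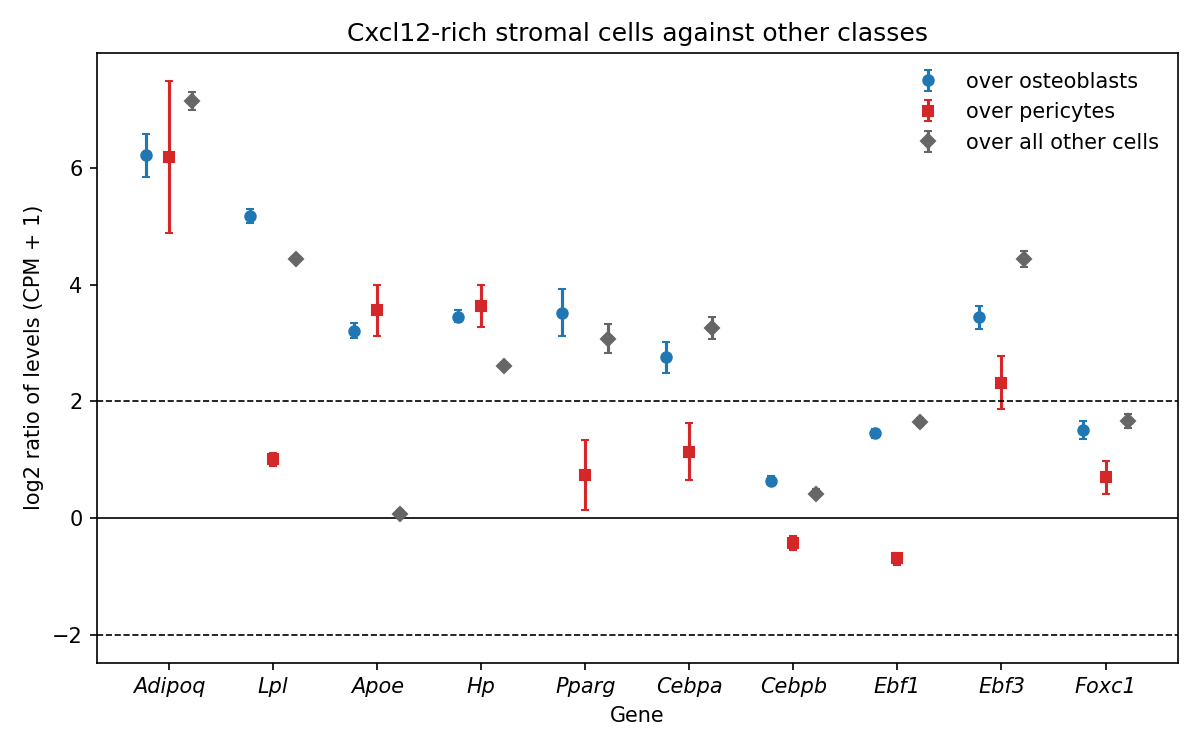
Points show the log2 ratio of levels (CPM + 1) in Cxcl12-rich stromal cells over osteoblasts (circles), pericytes or smooth muscle cells (squares) and all other cells (diamonds) for each gene, bars the 95% counting interval and dashed lines a 4-fold difference. Adipoq lies above 6 in every comparison, while Ebf1 and Cebpb lie below 0 against pericytes.

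The share of cells with a UMI was compared after each cell was thinned to 5000 UMIs, which left out 8 of 300 Cxcl12-rich cells, 11 of 493 immature osteoblasts and 9 of 101 pericytes. Adipoq was found in 73 of 292 Cxcl12-rich cells, or 25.0% (20.1 to 30.4), in 1.04% of immature osteoblasts and in 0 of 398 mature osteoblasts, which allows a share of up to 0.754%. Erythroid cells, taken as the background for Adipoq, had a UMI of it in 0.214% (median 12492 UMIs before thinning, against 10474 in the Cxcl12-rich class). Pparg was found in 14% of Cxcl12-rich cells and Cebpa in 32.2%, against 0.214% and 0 of 467 erythroid cells, the latter allowing up to 0.642%. Lpl was in 76.0%, Hp in 69.2% of Cxcl12-rich cells and Apoe in 146 of 292. Ebf1 was in 90.4%, Cebpb in 83.9%, Ebf3 in 54.5% and Foxc1 in 52.4%. In erythroid cells these 7 ranged from 0.214% for Ebf3 to 17.8% for Cebpb. B cells had a UMI of Cebpb in 9.04%, so erythroid cells were not the lowest class for that gene. Without thinning, the shares in the Cxcl12-rich class rose to 30.3% for Adipoq and 28.0% for Pparg, and to 98% for Ebf1.

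Pericytes had a UMI of Lpl in 84.8% of 92 cells (75.8 to 91.4), whose interval overlapped that of the Cxcl12-rich class (70.7 to 80.8), although the Lpl level was lower there. Ebf1 was in 96.7% of pericytes, Pparg in 9.78% and Adipoq in 1 of 92. In mature osteoblasts Cebpb was still found in 64.1% of cells, Ebf1 in 23.1% and Foxc1 in 18.3%, whereas Ebf3 was in 0.754% and Pparg in 0.251%.

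Counted per cell, the Cxcl12-rich class had a median of 6 members with a UMI (range 1 to 10), pericytes 4 (1 to 7), immature osteoblasts 3 (0 to 7) and mature osteoblasts 1 (0 to 4). At least 7 members were found in 30.8% of Cxcl12-rich cells, 2.17% of pericytes, 0.83% of immature osteoblasts and none of the mature osteoblasts. The remaining named classes had medians of 0 to 3.

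**Figure D3:**
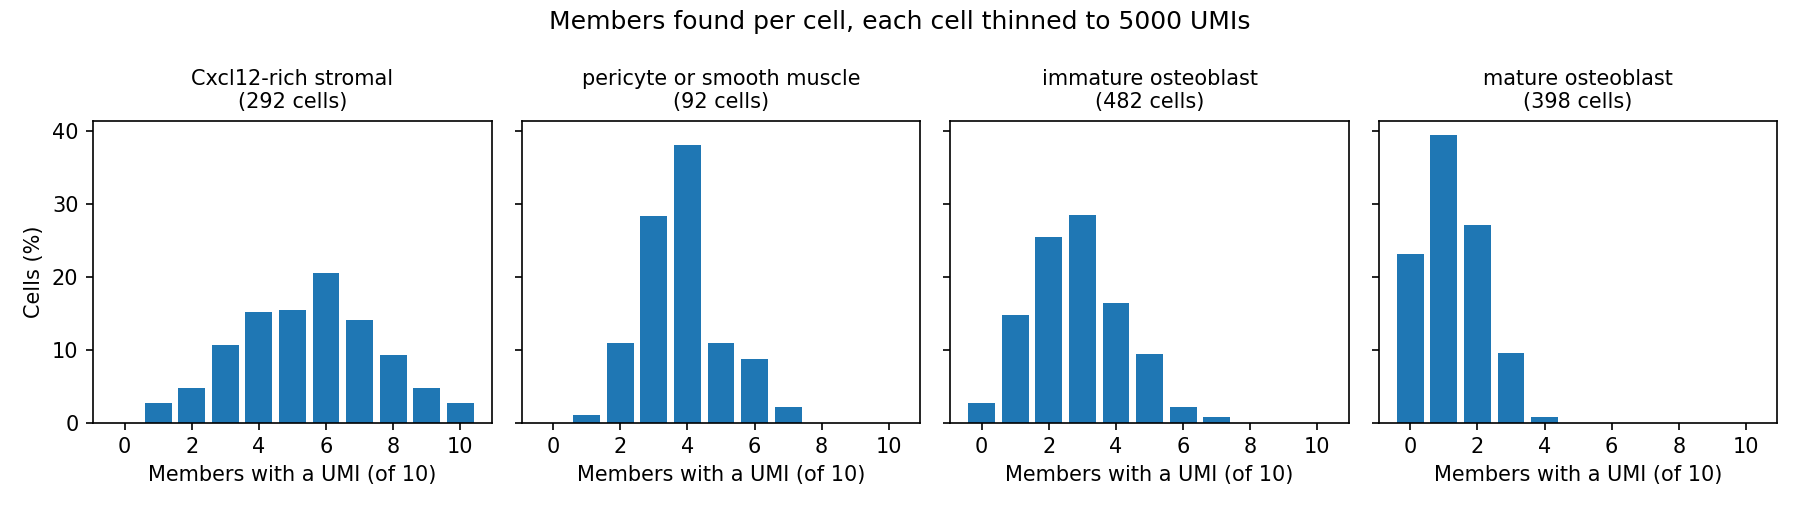
Bars show the percentage of cells (y axis) in which 0 to 10 of the members had a UMI (x axis) in 4 classes, each cell thinned to 5000 UMIs. The Cxcl12-rich cells centre on 6 members, pericytes on 4, immature osteoblasts on 3 and mature osteoblasts on 1.

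The members differed in how evenly they were spread within the Cxcl12-rich class. The 30 cells with the most UMIs of Adipoq held 80.0% of its UMIs, with up to 72 in 1 cell and none in 209 of the 300 cells. For Pparg the corresponding share was 60.0%, for Apoe 54.7%, for Hp 46.0% and for Lpl 42.1%. For Cebpa it was 40.3%. For Ebf3 it was 31.4%, for Foxc1 31.0% and for Cebpb 30.6%, close to the 30.2% of Cxcl12 itself. For Ebf1 it was lower at 23.4%. Pparg had the fewest UMIs of the members, and the part of counting error in these shares was not tested.

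Cells with a UMI of Adipoq (73 cells after thinning) were set beside the 219 without one, as a description of 1 class. Apoe was at 1348 CPM in the former and 228 CPM in the latter, a log2 ratio of 2.56 (2.34 to 2.78). Lpl differed by 2.02, Pparg by 1.87 (1.11 to 2.64) and Hp by 1.78. Cxcl12, Kitl and Lepr, the leptin receptor that marks this stroma, were also higher, by 1.44, 1.45 and 1.42. Ebf1 differed by 0.05 (-0.15 to 0.26), and Ebf3, Cebpb, Cebpa and Foxc1 by 0.63 to 0.85. Col1a1, the main bone collagen, was lower in the cells with Adipoq at 721 CPM against 1752 CPM, and Alpl, an enzyme of early osteoblasts, at 334 CPM against 709.6 CPM.

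As another view of the same cells, those of the Cxcl12-rich, immature and mature osteoblast classes were binned by their Cxcl12 UMIs after thinning. There were 591 cells with 0 UMIs, 254 with 1 to 4, 137 with 5 to 19 and 190 with 20 or more. The bins largely followed the clusters: 380 cells of the first were mature osteoblasts, 207 of the next immature osteoblasts and 176 of the last Cxcl12-rich, while the bin of 5 to 19 held 64 Cxcl12-rich cells and 73 immature osteoblasts. Ebf1 rose from 142 CPM over 422 CPM to 627 CPM in the first 3 bins and was at 609 CPM (576 to 642) in the last, within the interval of the bin before it (590 to 665). Adipoq had 0 UMIs in the first bin, 1 UMI in the next, 6.39 CPM (3.19 to 11.4) in the bin of 5 to 19 and 346 CPM (322 to 372) in the last. Lpl rose at every step, from 28.8 to 117, 447 and 2111 CPM, as did Ebf3, from 4.91 to 36.2, 93.5 and 242 CPM. Cebpa was at 8.28, 14.1, 42.4 and 93.5 CPM and Pparg at 1.0, 6.18, 13.9 and 51.3 CPM. Apoe stayed near 42.1 and 52.4 CPM in the first 2 bins before reaching 139 and 664 CPM. Hp rose from 31.8 to 93.0, 330 and 1114 CPM and Foxc1 from 44.1 to 101, 138 and 196 CPM, while Cebpb changed least, from 318 to 634 CPM. Over the same bins Col1a1 fell from 50668 to 1617 CPM, and Runx2, the master regulator of bone formation, was at 161, 199.8, 184 and 142 CPM. The median depth of the cells fell from 16856 to 10132 UMIs between the first and the last bin.

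**Figure D4:**
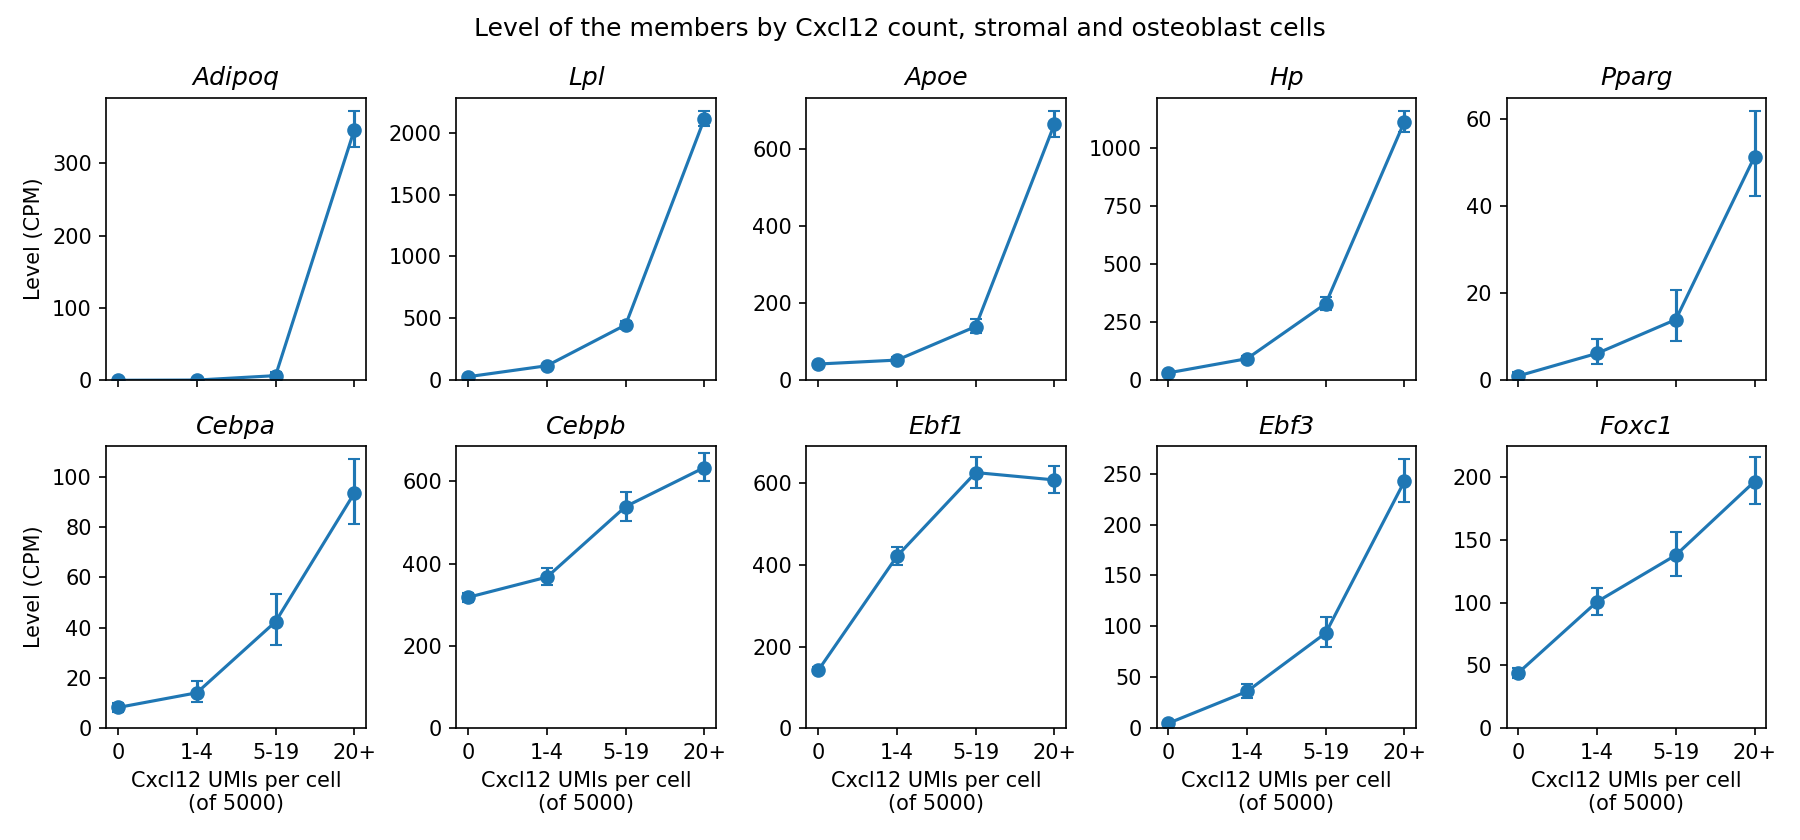
Each panel shows the level of 1 gene (CPM, linear axis from 0, with 95% counting intervals) in stromal and osteoblast cells binned by their Cxcl12 UMIs in a sample of 5000 UMIs per cell. Ebf1 reaches about 600 CPM by the bin of 5 to 19 UMIs, whereas Adipoq is at 6.39 CPM there and at 346 CPM in the bin of 20 or more.

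The study used the reporter to ask what becomes of hypertrophic chondrocytes, and its WPRE element, read more often than tdTomato itself, marked descendants at more than 14 UMIs. By this rule 62 of the 300 Cxcl12-rich cells were HC-derived, or 20.7% (16.2 to 25.7), against 21.9% of immature and 32.7% of mature osteoblasts, and no erythroid cell. The rule is a raw count that was not adjusted for depth. The median depth was 10474 UMIs in Cxcl12-rich cells, 11480 in immature and 18515 in mature osteoblasts. The part of depth in these shares was not tested. A tdTomato UMI was found in 15 of the 62. Of the 238 other Cxcl12-rich cells 73 held WPRE within the limit and 3 held tdTomato, so they were not free of reporter transcripts. WPRE was also found in 52 of 467 erythroid cells, at up to 3 UMIs per cell, against up to 14 in the other Cxcl12-rich cells. Whether the latter include HC descendants below the limit was not tested. The rule also marked 9 of 101 pericytes (8.91%) and 8 of 190 plasmacytoid dendritic cells (4.21%). Each remaining blood class had at most 0.252%. Why cells of a blood class passed the rule was not tested. Both groups of Cxcl12-rich cells carried the members: Adipoq was at 373 CPM in HC-derived and 162 CPM in the other cells, Lpl at 1850.3 and 1465 CPM, Apoe at 780.1 and 370.4 CPM, and Hp at 830.2 and 727 CPM. Pparg was at 47.5 and 34.9 CPM, Cebpa at 80.8 and 73.0 CPM, Cebpb at 649 and 514 CPM, Ebf1 at 557 and 621 CPM, Ebf3 at 128 and 195 CPM, and Foxc1 at 154 and 179 CPM.

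Adipoq, at a log2 ratio of 1.20 (0.99 to 1.41), and Apoe, at 1.07 (0.93 to 1.22), were at least 2-fold apart between the groups, which 5.29% of 8740 genes were. The largest difference in the other direction was that of Ebf3 at -0.60 (-0.90 to -0.29). For Pparg, Cebpa and Foxc1 the interval held 0. The Irx3 state may differ along with the reporter, and this design cannot tell them apart. The Adipoq difference rested on few cells, since 5 of the HC-derived cells held 61.9% of the 291 UMIs of that group. After thinning, Adipoq was found in 33.9% of HC-derived cells (22.3 to 47.0) and 22.6% of the others (17.4 to 28.6), and Apoe in 66.1% (53.0 to 77.7) and 45.7% (39.1 to 52.3). Neither gene stayed 2-fold apart when cells needed 2000 genes, when up to 20% mitochondrial UMIs were allowed or when cells were weighted equally, where Adipoq was at 0.57, 0.75 and 0.98 and Apoe at 0.65, 0.83 and 0.83. Markers differed between the groups in both directions. Cxcl12 was at 5761 CPM in HC-derived and 6795 CPM in the other cells and Kitl at 298 and 425 CPM, whereas Lepr was at 353 and 253 CPM. Of the osteoblast markers, Col1a1 was at 802 and 1994 CPM, Alpl at 499 and 590.1 CPM, Runx2 at 128 and 137 CPM, and Mmp13 at 5952 and 3901 CPM. Of blood cell transcripts, Hbb-bs was at 23775 and 22269 CPM and the neutrophil gene S100a9 at 62.9 and 1053 CPM. Without the 61 cells with a UMI of Ngp, the log2 ratios were 1.73 for Adipoq and 1.52 for Apoe.

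Among immature osteoblasts, 8 of the 10 members reached 10 CPM in the 108 HC-derived or the 385 other cells, all but Adipoq and Pparg. None of the 8 was 2-fold apart, by a rule that 5.79% of 8441 genes passed. Ebf3 at -0.92 (-1.39 to -0.45) and Ebf1 at -0.65 (-0.78 to -0.52) were lower in the HC-derived cells, and Hp at 0.84 (0.65 to 1.03) was higher. Whether the split acts differently in the classes was not tested.

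**Figure D5:**
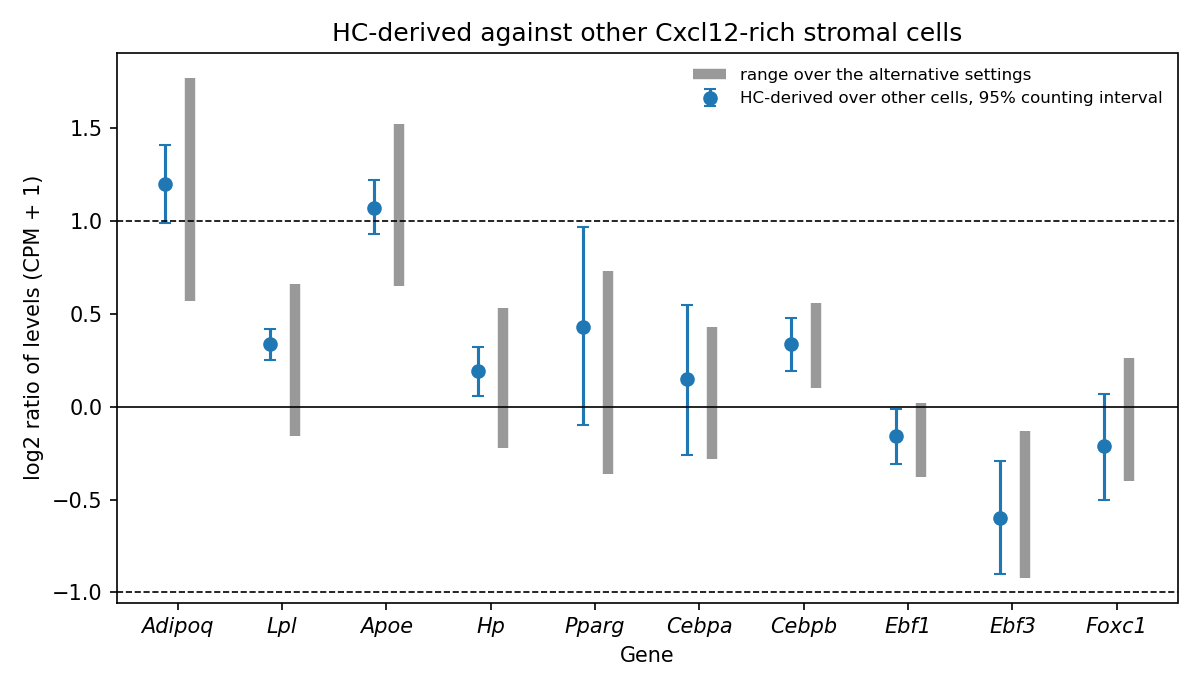
Blue points show the log2 ratio of levels (CPM + 1) in HC-derived over other Cxcl12-rich stromal cells for each gene with 95% counting intervals, grey bars the range over the alternative settings, and dashed lines a 2-fold difference. Adipoq at 1.20 and Apoe at 1.07 lie above the upper line, but their grey bars reach down to 0.57 and 0.65.

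Genes of mature fat cells were mostly low in the Cxcl12-rich class, where 14 of 17 had a UMI and 4 reached 10 CPM. No share of all genes was computed for the count of 4. In all 6 of the 17 reached 10 CPM in Cxcl12-rich cells, osteoblasts or pericytes, and none of the 6 had its highest level in the Cxcl12-rich class. Of all genes with at least 10 CPM in a named class only 5.06% did, so this count is a description. The fatty acid binding protein Fabp4, at 118 CPM, was at least 4-fold higher than in osteoblasts, with a log2 ratio of 3.65. However, blood vessel cells had 3489 CPM of it and pericytes 1264 CPM. The fatty acid transporter Cd36, at 21.7 CPM, had a log2 ratio of 2.47, but blood vessel cells had 153 CPM. The desaturase Scd1 was lower, with a log2 ratio of -1.57, and Acsl1 stood at 0.45. Singled out after their values were seen, the lipid droplet genes Plin1 and Cidec and the adipsin gene Cfd had 1 UMI each in the class, and the hormone genes Lep and Retn had none of 3587464 UMIs, which allows up to 0.836 CPM.

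Of 13 adipogenic transcription factors outside the members 9 were compared. All 9 had a ratio over osteoblasts above 0, with an interval that held 0 for 3 of them, and 1, Ebf2 at a log2 ratio of 3.28, passed 4-fold. The share of all genes above 0 was not computed, while 2.93% of all genes compared with osteoblasts were at least 4-fold higher. Ebf2 was at 32.3 CPM in the Cxcl12-rich class and at 93.7 CPM in fibroblasts. Zfp423, which acts upstream of Pparg, stood at 1.80, the glucocorticoid receptor Nr3c1 at 0.69 and Stat5a at 0.63, and the median of the list was 0.58 against 0.30 for all genes. Of 8 known brakes on fat-cell formation 5 were compared, and all 5 also had a ratio above 0, with a median of 0.41. The median of all genes was itself above 0, so these 2 counts are a description only. Nr2f2 at 2.34 passed 4-fold but was highest in pericytes at 230.1 CPM, Foxc2 stood at 1.78, Dlk1 at 0.41 and Klf2 at 0.36.

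Of 12 secreted products of the stroma, 3 (Cxcl12, Kitl and Il7) are also among the markers that named the class, so their level there restates the naming. Of the other 9, 8 were at least 4-fold higher than in osteoblasts and 8 had their highest level in the Cxcl12-rich class. Of all genes compared with osteoblasts 2.93% were at least 4-fold higher. Of all genes with at least 10 CPM in a named class 5.06% were highest in the Cxcl12-rich class. Cxcl14 had a log2 ratio of 5.96, Kng2 of 5.80 and Esm1 of 5.01. This list was drawn up with earlier results of these cells known and is not independent of them. Among 12 receptors and partners of the secreted members 8 were compared and none was 4-fold higher. With a share of 2.93% over all genes, this count is a description. The lipoprotein receptor Vldlr was at least 4-fold lower at -2.04. Angptl4, an inhibitor of lipoprotein lipase, stood at 1.65, Lrp1 at 0.84 and Adipor2 at 0.51. Gpihbp1, which holds lipoprotein lipase on capillaries and was singled out after its value was seen, was at 549 CPM in blood vessel cells and 4.46 CPM in the Cxcl12-rich class. Of the 8 osteogenic genes, 4 were at least 4-fold lower, namely Ifitm5 at -7.16, Bglap at -6.69, Col1a1 at -4.56 and Ibsp at -3.53. Of all genes compared with osteoblasts, 1.56% were at least 4-fold lower. Every gene of this list but Dlx5 is also among the markers that named the osteoblast classes, so these low ratios restate the naming. Dlx5, singled out after its value was seen, was the 1 gene of that list that was higher, at 0.55.

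Over the 30 clusters, which share 1 library, the genes most like each member in log2(CPM + 1) were named among 7296 genes with at least 50 CPM in 1 cluster, as a description. For Adipoq they were Kng2, Kng1 and Dpep1 with Pearson's r of 0.94, 0.91 and 0.90, and Kng1 and Kng2 are closely related genes that may share reads. For Ebf3 they were Lamb1, Gas6 and Kitl (0.93, 0.92 and 0.92) and for Foxc1 Dlc1, Maged2 and Enah (0.96 each). For Lpl they were Elovl1, Ttyh2 and Actn1 (0.85, 0.85 and 0.82), for Pparg Plxnd1, Cd300lg and Lamp1 (0.83, 0.83 and 0.81) and for Cebpa Lacc1, Slc7a8 and Iah1 (0.81, 0.77 and 0.76). Cebpb was nearest to Fas, Ifrd1 and Tnfrsf1a (0.88, 0.83 and 0.83), Ebf1 to Akap12, Cplx2 and Rere (0.86, 0.86 and 0.84), Apoe to Rab20, C3ar1 and Ccl9 (0.83, 0.82 and 0.82) and Hp to Ltb4r1, Sqor and Dram1 (0.85, 0.85 and 0.83). No member was among the 3 nearest genes of another. Between members the values ran from -0.39 for Cebpb with Ebf1 to 0.72 for Adipoq with Ebf3 and for Cebpa with Apoe.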

How the data were processed

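Cells of 2 tibiae of 1 mouse were captured as 1 library (10x Genomics), entered as 4 sequencing index entries that the deposited matrix does not keep apart. The authors aligned reads to mm10 with the reporter sequences added, using Cell Ranger 3.1.0 per the labels, and deposited UMI counts per gene and barcode, and separately for 98 exogenous sequences including tdTomato and WPRE. Here 14181 barcodes with 158281984 UMIs were read. A barcode was kept as a cell if it held 1600 genes or more and no more than 10% mitochondrial and 50% ribosomal UMIs (8255). Counts were scaled to 10000 per cell, log-transformed and reduced to 2000 variable genes without the members, the companion lists, Mmp genes and Pth1r. They were then clustered (30 components, 20 neighbours, Leiden resolution 1, scanpy 1.11.5). Doublets were called with Scrublet on all barcodes, and the 588 called (4.15%) stayed in.

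Clusters took the marker list with the most genes among their 10 leading genes, then the highest mean z-score, with at least 3 markers at 10 CPM. Clusters with over 50% doublets, with 5000 CPM of Col2a1 outside cartilage or with 50 CPM of the leukocyte gene Ptprc outside leukocytes stayed unnamed. A level is the UMIs of a class per 1000000 UMIs (CPM) with an exact Poisson interval, shares have Clopper-Pearson intervals, ratios add 1 CPM and propagate Poisson errors, and a count of 0 allows up to 3 counts. Cells are not replicates, so there is no test. PCR and cell-to-cell variation are outside the intervals. The ratios and thinning were tested on simulated counts. The members and lists were chosen with earlier results of these data known. Named genes are the members, at most 4 per companion list with the largest log2 ratio over osteoblasts, and the 3 genes nearest to each member. Alternatives covered clustering, filters, doublets, weighting, added CPM, folds and the reporter rule. Sequences and coordinates are from RefSeq and GENCODE M21 on GRCm38.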

Additional observations from a re-analysis of the deposited data

How the results depend on the processing

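At Leiden resolution 0.6 and with at most 5% mitochondrial UMIs no Cxcl12-rich stromal class formed, so these settings gave no values. Under the remaining settings the class held 199 to 358 cells. The number of members highest in it was 6 or 7. Of the members, 6 to 9 passed the fold over osteoblasts, 4 to 6 over pericytes and 5 to 8 over all other cells. The upper ends are those of a 2-fold limit, for which no share of all genes was computed. At 4-fold in the main setting, 2.93%, 2.72% and 4.97% of all genes compared were higher, in the same order. The number of members 2-fold apart between HC-derived and other cells was 2, but it was 0 with at least 2000 genes per cell, with up to 20% mitochondrial UMIs and with cells weighted equally, and 1 with HC-derived cells set by at least 1 WPRE UMI. The cause was not tested. The median share of Cxcl12-rich cells with a UMI over the members was 53.4%, 43.2% when thinned to 3000 UMIs and 72.8% without thinning, as fewer or more UMIs per cell imply. Of the single log2 ratios, all 100 values over osteoblasts and all 100 over pericytes kept their sign, as did 98 of 100 over all other cells and 110 of 120 between HC-derived and other cells, and none of the called ratios changed sign. Leaving out cells with an Ngp UMI was chosen after seeing the data. No paired analysis was possible because all 4 index entries were pooled into 1 library in the matrix, and for the same reason no replicate could be left out.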

Other observations

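The 5926 barcodes that the filters left out held 80 of the 888 Adipoq UMIs in the matrix, or 9.01%, at 3.80 CPM against 5.89 CPM in the kept cells. For Ebf1 they held 16.4% of the UMIs, at 262 CPM against 204 CPM in kept cells, and for Foxc1 5.33%, at 20.9 against 56.9 CPM.

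The 2 blood vessel clusters differed in the members they carried. The cluster of 756 cells, led by Emcn, Fabp4 and Plvap, had Apoe at 293 CPM, Pparg at 20.2 CPM and Ebf1 at 172 CPM. The cluster of 73 cells, led by Eln, Stmn2 and Gja4, had Apoe at 55.1 CPM, Pparg at 8.26 CPM and Ebf1 at 395 CPM.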
